A study of Mus musculus with 87 samples.

Results

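Of 7796 SUZ12 peaks listed for mouse embryonic stem cells, 3665 overlapped a PCL2 peak by at least 1 bp and no JARID2 peak, which is 47.0% of the list (95% Wilson interval 45.9 to 48.1%). These 3665 regions are called PCL2-only peaks here. A further 3921 SUZ12 peaks (50.3%) overlapped both PCL2 and JARID2 and are called shared peaks. Another 196 overlapped neither and 14 overlapped JARID2 alone. The members were chosen from the peak lists themselves, so their number, their overlaps and their distance from JARID2 are given as a description with no test.

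The study asked what each accessory subunit of Polycomb repressive complex 2 (PRC2) contributes to where the complex sits. It holds 87 samples of mouse embryonic stem cells, 63 of them chromatin immunoprecipitations and 24 of them RNA libraries. The cells were wild type or lacked Suz12, Pcl2, all of Pcl1-3, Jarid2, Aebp2 or Epop, alone or in the combinations Jarid2 + Aebp2, Jarid2 + Aebp2 + Epop, Pcl1-3 + Jarid2, Pcl1-3 + Epop, Pcl1-3 + Epop + Aebp2, Pcl1-3 + Epop + Jarid2, Pcl1-3 + Jarid2 + Aebp2 and Pcl1-3 + Jarid2 + Aebp2 + Epop, and some Suz12 KO cells carried Flag-SUZ12, Flag-SUZ12-C2 or Flag-SUZ12-DeltaC2. All grew in medium with 2i inhibitors, per the labels' protocols. The 3 peak lists, 1 for SUZ12, 1 for PCL2 (20003 peaks) and 1 for JARID2 (4991 peaks), belong to the series as a whole, and the sources used here do not say which libraries each was called from. They hold positions in the mm10 build with no score and no replicates, so the depth behind a peak is unknown and no difference between kinds of peak could be set against a spread between replicates. Intervals below cover counting error only. Neighbouring peaks and the starts within them are not independent of each other.

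PRC2 methylates lysine 27 of histone H3, a mark of genes kept silent, and SUZ12 is the core subunit on which the complex is assembled. The Polycomb-like proteins, of which PCL2 (also called MTF2) is the main one in mouse embryonic stem cells, bind unmethylated CpG-rich DNA. They belong to one form of PRC2, often with EPOP, while JARID2 and AEBP2 belong to the other form, and JARID2 can bind histone H2A carrying the ubiquitin that PRC1 adds.

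The promoters below show how CpG content, which bears on PCL2 binding, ranges at such starts, and each has its start under one of the widest PCL2-only peaks at a gene of the lists described later. They are RefSeq windows of the GRCm38.p6 assembly, the assembly behind mm10, that run from 250 bases before to 50 bases after a gene start, 5′ to 3′ along the gene. CpG dinucleotides are in capitals. Scn8a (chr15:100870395-100870694, plus strand) encodes a voltage-gated sodium channel, Inhbb (chr1:119422199-119422498, minus strand) an activin subunit, Gbx2 (chr1:89931127-89931426, minus strand) a homeobox factor of the midbrain-hindbrain boundary and Ephb2 (chr4:136835963-136836262, minus strand) a receptor for ephrins. Psmb8 (chr17:34197945-34198244, plus strand), an immunoproteasome subunit, is the poorest in CpG of the 8 windows that the naming rule gave, and Pde5a (chr3:122728908-122729207, plus strand), a cGMP phosphodiesterase, is the one of them that holds the ETS motif CCGGAAG described below. These 6 were picked from the 8 after their values were seen.
Scn8a: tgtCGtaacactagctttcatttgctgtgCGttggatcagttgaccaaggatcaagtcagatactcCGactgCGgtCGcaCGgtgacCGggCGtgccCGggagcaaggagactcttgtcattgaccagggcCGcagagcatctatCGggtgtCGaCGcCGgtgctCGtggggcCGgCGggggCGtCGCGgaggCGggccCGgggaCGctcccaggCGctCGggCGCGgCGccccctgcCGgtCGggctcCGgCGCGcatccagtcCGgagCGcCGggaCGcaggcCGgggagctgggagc
Inhbb: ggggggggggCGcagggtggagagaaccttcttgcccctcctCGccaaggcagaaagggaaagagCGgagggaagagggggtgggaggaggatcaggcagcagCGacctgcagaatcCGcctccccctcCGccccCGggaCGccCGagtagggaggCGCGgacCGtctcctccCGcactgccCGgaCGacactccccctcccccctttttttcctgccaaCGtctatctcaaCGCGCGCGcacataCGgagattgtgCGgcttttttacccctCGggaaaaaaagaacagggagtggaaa
Gbx2: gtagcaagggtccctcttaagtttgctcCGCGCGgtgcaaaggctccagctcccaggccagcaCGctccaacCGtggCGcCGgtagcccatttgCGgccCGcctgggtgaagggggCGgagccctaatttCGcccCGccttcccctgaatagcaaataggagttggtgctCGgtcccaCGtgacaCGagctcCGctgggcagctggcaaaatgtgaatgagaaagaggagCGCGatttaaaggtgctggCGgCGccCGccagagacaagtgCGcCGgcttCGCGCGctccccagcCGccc
Ephb2: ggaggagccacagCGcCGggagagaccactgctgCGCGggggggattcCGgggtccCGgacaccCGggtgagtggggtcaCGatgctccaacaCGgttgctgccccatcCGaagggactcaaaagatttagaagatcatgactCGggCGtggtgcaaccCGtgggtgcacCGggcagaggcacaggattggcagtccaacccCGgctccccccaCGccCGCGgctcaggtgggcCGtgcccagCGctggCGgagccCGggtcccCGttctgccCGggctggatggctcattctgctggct
Psmb8: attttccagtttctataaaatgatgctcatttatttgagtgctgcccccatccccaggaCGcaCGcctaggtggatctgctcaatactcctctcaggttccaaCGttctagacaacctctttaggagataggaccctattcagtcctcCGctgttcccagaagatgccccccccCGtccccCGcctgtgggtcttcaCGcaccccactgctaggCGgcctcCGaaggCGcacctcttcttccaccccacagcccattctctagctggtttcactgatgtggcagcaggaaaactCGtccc
Pde5a: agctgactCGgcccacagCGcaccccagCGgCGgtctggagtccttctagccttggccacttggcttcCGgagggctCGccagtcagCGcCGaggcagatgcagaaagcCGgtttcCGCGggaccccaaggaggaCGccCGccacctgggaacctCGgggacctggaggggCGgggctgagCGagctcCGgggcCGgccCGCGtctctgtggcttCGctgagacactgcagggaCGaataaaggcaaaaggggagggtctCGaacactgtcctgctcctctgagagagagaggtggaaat
The Scn8a window holds 38 CpG, Gbx2 27, Ephb2 24, Inhbb 23, Pde5a 23 and Psmb8 11. All but Psmb8 hold more than the median of 13 over the 21263 listed starts of coding genes. The other 2 windows of the rule belong to Lhx3, a LIM homeobox factor of the pituitary and motor neurons, with 28 CpG, and Tgfb1, a growth factor of the TGF beta family, with 30.

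PCL2-only peaks were narrower than shared peaks. Their median width was 1052 bp (interquartile range 738 to 1441 bp, range 209 to 9250 bp), against 2076 bp for shared peaks (1499 to 2965 bp, up to 87992 bp). They covered 4.24 Mb in all, against 10.1 Mb for shared peaks. The share of SUZ12 peaks that were PCL2-only was highest between 500 and 1000 bp and lower in each wider class, with 71.7% of the 389 peaks under 500 bp, 79.0% of those of 500 to 1000 bp, 62.4% of those of 1000 to 1500 bp, 38.4% of those of 1500 to 2000 bp, 18.2% of those of 2000 to 3000 bp and 3.74% of the 989 peaks of 3000 bp or more. A wider peak has more bases that a JARID2 peak can touch, so width and membership are tied by the rule. For peaks of 1000 to 2000 bp, the shares with a start, with CCGGAAG and on chromosome 8 and the median CpG are also given below. The other properties and the gene lists were not matched by width.

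**Figure D1:**
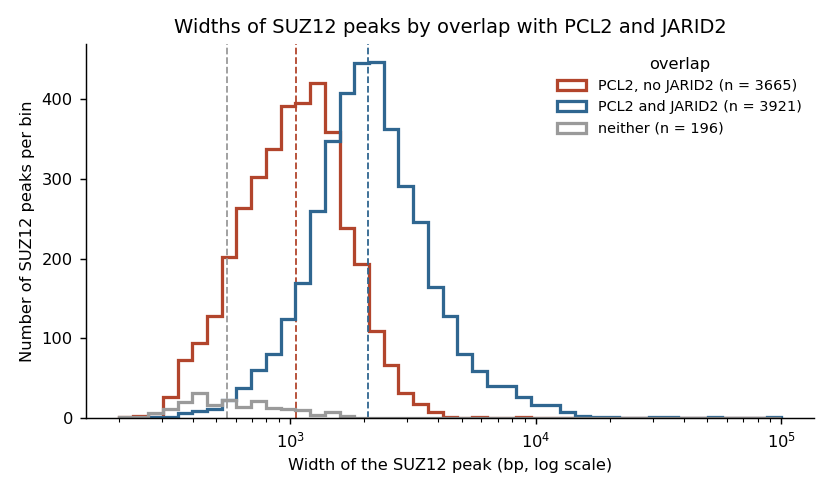
Number of SUZ12 peaks (vertical axis) by width in bp (horizontal axis, log scale) for PCL2-only peaks, shared peaks and peaks with neither; dashed lines are medians. The PCL2-only median of 1052 bp lies left of the shared median of 2076 bp, and the 2 distributions overlap widely.

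The widest PCL2-only peak, of 9250 bp at chr12:112775602-112784851, lay inside Ahnak2, which encodes a very large scaffold protein, and PCL2 covered 98.5% of it. The second, chr17:34626736-34632734, was 5999 bp wide and held the starts of Ppt2, a lysosomal thioesterase, and Prrt1. The third, chr10:79973489-79977909, was 4421 bp wide and lay over Tmem259 and the far end of Grin3b, which encodes an NMDA receptor subunit. Next came 2 peaks on chromosome 8. One of 4198 bp at chr8:84943617-84947814 held the start of Rtbdn and overlapped Mast1, a microtubule-associated kinase, and one of 4157 bp at chr8:84041020-84045176 held the start of Rln3, the neuropeptide relaxin 3, and an end of Il27ra, a cytokine receptor. Peaks of 4037 bp at Mapk11, a p38 kinase (chr15:89146155-89150191), 3976 bp at Phf21b (chr15:84852998-84856973), 3836 bp at Scn8a (chr15:100869771-100873606) and 3781 bp at Ptprs, a receptor tyrosine phosphatase (chr17:56472777-56476557), followed. Of the 10 widest, 1 of 4031 bp at chr4:151874148-151878178 overlapped no coding gene. PCL2 covered between 77.8% (at Rln3) and 100% (at Mapk11) of these 10. Their gap to the nearest JARID2 peak ran from 4197 bp (the chr4 peak) to 406217 bp (Phf21b).

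SUZ12 and PCL2 lay on the same bases at most members. PCL2 covered a median of 91.4% of a PCL2-only peak (5th percentile 51.6%), against 94.7% of a shared peak, and covered 1096 of the PCL2-only peaks whole (29.9%), against 1096 shared peaks (28.0%). The centres of the SUZ12 and PCL2 peaks were a median of 119 bp apart at PCL2-only peaks, against 140 bp at shared peaks. A single PCL2 peak accounted for the overlap at 3487 members (95.1%). The PCL2 peaks at members had a median width of 1142 bp, against 2149 bp at shared peaks and 506 bp for the 11828 PCL2 peaks without SUZ12 or JARID2, so members lay between the other 2 kinds.

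Members varied widely in their distance from JARID2. No gap was computed for other places in the genome, so these values do not say whether members lie unusually near or far. The median gap to the nearest JARID2 peak was 98058.5 bp (interquartile range 23586 to 248965 bp), with 170 members (4.64%) within 1000 bp and 422 (11.5%) within 5000 bp. A shared SUZ12 peak lay within 5 kb of 409 members (11.2%), and another PCL2-only peak within 5 kb of 497 (13.6%). Just inside the rule, a peak in Tnfaip2 (chr12:111447335-111447992) ended 4 bp from a JARID2 peak, an intergenic one (chr5:26070323-26070986) 11 bp and one in Grm2 (chr9:106649640-106650376) 13 bp. The members with the smallest PCL2 overlap were a peak in Cpne2 with 11 bp of 711 bp (chr8:94534251-94534961), one in Nxph1 with 14 bp of 454 bp (chr6:8957412-8957865) and one outside genes with 15 bp of 1292 bp (chr6:6870081-6871372). Just outside it, shared peaks in Lypd1 (chr1:125910356-125910928), Nod1 (chr6:54971764-54973227) and Zic4 (chr9:91369385-91370091) overlapped JARID2 by 9, 13 and 15 bp. A SUZ12 peak at chr2:147082110-147082854 abutted a PCL2 peak without sharing a base with it, and one in Zfp469 (chr8:122255179-122255432) stopped 11 bp short of one.

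A listed start of a coding gene lay inside 1288 members (35.1%, interval 33.6 to 36.7%), against 1754 shared peaks (44.7%, 43.2 to 46.3%) and 15.9% of PCL2 peaks without SUZ12 or JARID2. A further 8.43% of members, against 14.4% of shared peaks, held an end of a coding gene without a listed start. A long non-coding RNA start lay in another 2.24% of members, against 2.83% of shared peaks. Of the rest, 9.63% of all members, against 5.30% of all shared peaks, lay within 1 kb of a coding gene start. Members lay inside a coding gene over 1 kb from its start in 25.6% of cases, against 18.3% of shared peaks and 35.3% of PCL2 peaks alone, and outside coding genes in 18.9%, against 14.4% of shared peaks and 33.8% of PCL2 peaks alone. Between 1000 and 2000 bp in width, 41.7% of 1681 members and 41.5% of 1512 shared peaks held a start. Median widths in that band still differed, at 1327 bp and 1546 bp. By width class, 30.8% of members and 24.2% of shared peaks of 500 to 1000 bp held a start. The shares were 41.2% and 36.5% at 1000 to 1500 bp, 42.8% and 45.6% at 1500 to 2000 bp and 38.1% and 48.0% at 2000 to 3000 bp. At 3000 bp or more they were 59.5% of 37 members and 52.9% of 950 shared peaks. Members with a start were a median of 1165.5 bp wide, those deep inside genes 986 bp and those outside genes 887 bp.

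Peaks at starts leaned into the gene. The position of the start minus that of the peak centre, along the gene, had a median of −185 bp in PCL2-only peaks (interquartile range −343 to −17.4 bp), against −290 bp in shared peaks (−595 to −30.8 bp). The centre lay inside the gene for 76.9% of 1456 starts in members and for 76.9% of 2019 starts in shared peaks. A pair of genes facing away from each other shared 32 of the 1288 PCL2-only peaks with a start (2.48%), against 12 of 1754 shared peaks (0.684%). Of the coding genes with more than one listed start, 335 had one in a member, 248 of these had another outside members and 38 had another in a shared peak. Sall2, a zinc finger factor, had 1 start in a member and 1 in a shared peak 12347 bp away. Nfix, a nuclear factor I gene, had 1 start in a member and 3 in shared peaks, and Pcgf5, a PRC1 subunit, had 1 of each 61419 bp apart. The homeobox gene Barhl1 (4173 bp apart), the tumour suppressor Rassf1 (3028 bp) and Dpp6, a potassium channel partner (231842 bp), were split in the same way. These 6 genes were chosen after their values were seen.

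**Figure D2:**
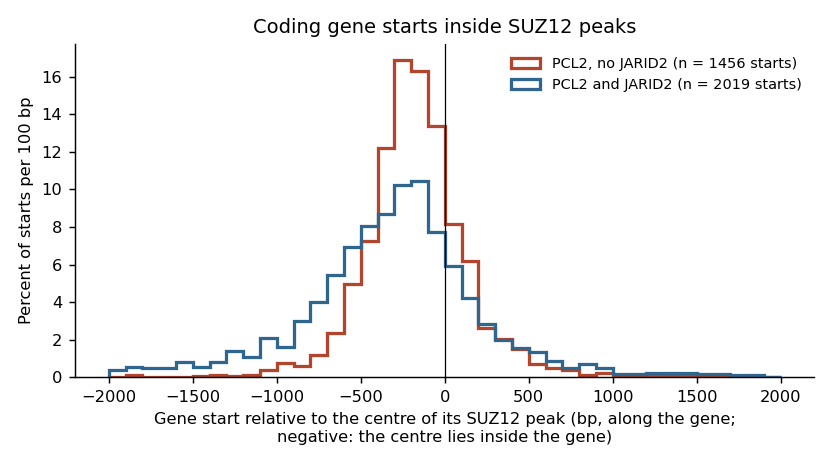
Position of coding gene starts relative to the centre of the SUZ12 peak that holds them, in bp along the gene (horizontal axis), as percent of the starts per 100 bp (vertical axis), for 1456 starts in PCL2-only peaks and 2019 starts in shared peaks. Both curves are highest left of 0, where the peak centre lies inside the gene, and the PCL2-only curve is the narrower.

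Gene starts under PCL2-only peaks were rich in CpG, as the Scn8a, Gbx2 and Ephb2 windows above show. Their median was 25 CpG in 300 bases (interquartile range 17 to 34), against 23 for starts in shared peaks (14 to 31), 23 for starts in PCL2 peaks without SUZ12 and 7 for starts with neither. The share of starts that lay in a member was 0.130% of the 3841 starts with 0 to 2 CpG, 1.19% of those with 3 to 5, 3.67% with 6 to 10, 8.36% with 11 to 15, 8.15% with 16 to 20, 10.7% with 21 to 25, 12.1% with 26 to 30 and 15.8% of the 2974 with 31 or more. It thus went up with CpG content apart from a flat step between 11 and 20. Shared peaks held 0.156% of the starts with 0 to 2 CpG, 7.89% with 6 to 10, 12.9% with 21 to 25 and 18.2% with 31 or more. Only 25 of the 1456 starts in members (1.72%) had under 5 CpG. Among these 25 were one start each of Sall2, Prm1, a sperm protamine, and the olfactory receptor gene Olfr95 with 1 CpG each, and one start each of Grin3b, Gfap, the astrocyte filament protein, and Pth2 with 3 each. In peaks of 1000 to 2000 bp the medians were 25 in members and 22 in shared peaks.

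**Figure D3:**
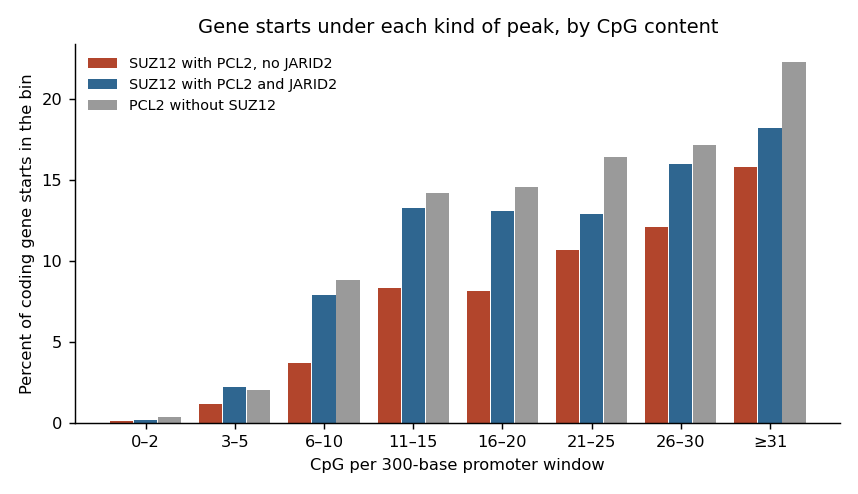
Percent of listed coding gene starts (vertical axis) that lay in PCL2-only peaks, in shared peaks and in PCL2 peaks without SUZ12, by the number of CpG in the 300-base promoter window (horizontal axis). The PCL2-only bar is 0.130% with 0 to 2 CpG and 15.8% with 31 or more, with a flat step between 11 and 20.

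Short motifs were then counted on either strand of the 300-base window. CCGGAAG, a core that ETS factors are known to bind and that occurs at Pde5a above, was in 9.0% of starts in members (interval 7.63 to 10.6%), against 3.86% in shared peaks (3.11 to 4.80%), 15.4% in PCL2 peaks without SUZ12 and 11.6% of all listed starts. For starts with 11 to 30 CpG the shares were 8.42% in members, 4.21% in shared peaks, 16% in PCL2 peaks without SUZ12 and 19.3% of all, and in peaks of 1000 to 2000 bp they were 8.63% in members and 4.24% in shared peaks. GGGCGG, an SP box, was in 76.9% of starts in members, against 68.8% in shared peaks and 46.2% of all; at 11 to 30 CpG it was in 76.2% in members, 69.3% in shared peaks and 68.5% of all. CCAAT was in 28.2% of starts in members, against 31.2% in shared peaks and 38.2% of all (29.1% in members, 32.8% in shared peaks and 40.1% of all at 11 to 30 CpG). TATAAA was in 6.18% of starts in members, against 7.73% in shared peaks and 12.6% of all, but at 11 to 30 CpG in 6.64% in members, 8.26% in shared peaks and 6.15% of all. CGCG, also part of many CpG-rich windows, was in 81.2% of starts in members, against 78.8% in shared peaks and 49.2% of all, but at 11 to 30 CpG in 81.1% in members, 82.2% in shared peaks and 78.9% of all. A match says only that the letters are in the window.

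PCL2-only peaks were densest on chromosome 8. It held 430 of them (11.7% of all), against 218 shared peaks (5.56%), with 4.77% of coding genes. That is 412 members per 1000 coding genes on chromosome 8, against 113 to 255 (median 160) on the 18 other autosomes. Shared peaks on chromosome 8 came to 209 per 1000 genes, within the 122 to 270 of the other autosomes, and JARID2 peaks to 305, within 147 to 347. PCL2 peaks of any kind came to 1613 per 1000 genes there, against 598 to 1242 on the others, and their part in the member count was not tested. Members made up 60.4% of the SUZ12 peaks of chromosome 8 (interval 56.8 to 63.9%), against 35.7 to 51.6% on the other autosomes. In peaks of 1000 to 2000 bp, 11.4% of members and 4.56% of shared peaks were on chromosome 8. Within it, members were densest at the far end, with 891 per 1000 coding genes in the stretch from 120 to 130 Mb, 88.2 between 50 and 60 Mb and 222 in the first 10 Mb. Cacna1a, a neuronal calcium channel gene, Junb, an AP-1 factor, Cdh15, a muscle cadherin, Adam9 and Zfp276 were among the chromosome 8 genes near a member. The X chromosome had 29.0 members per 1000 genes. It was below the autosomes in the other kinds of peak as well, with 68.3 shared, 244 PCL2 and 108 JARID2 peaks per 1000 genes. Input signal and chromosome copy number were not analysed here.

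**Figure D4:**
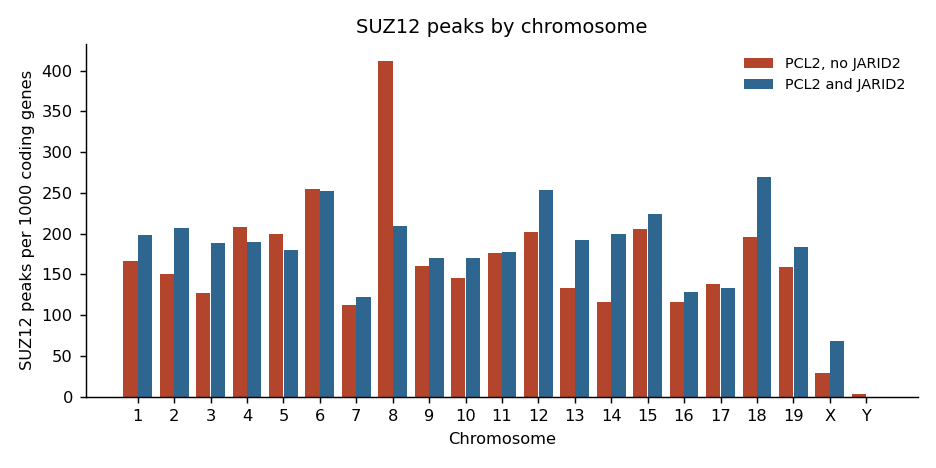
SUZ12 peaks per 1000 coding genes (vertical axis) on each chromosome (horizontal axis), PCL2-only peaks beside shared peaks. Chromosome 8 stands at 412 PCL2-only peaks per 1000 genes, against 113 to 255 on the other autosomes, and at 209 shared peaks.

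To see which genes were concerned, a coding gene was counted as near a peak when the peak lay within 1 kb of one of its starts, or of either end where no start was listed. By that rule 1912 of 21887 coding genes (8.74%) were near a PCL2-only peak and no JARID2 peak, 2515 (11.5%) were near a shared peak and 3217 (14.7%) near PCL2 without SUZ12 or JARID2. The 1912 are called PCL2-only genes and the 2515 shared genes. A shared gene can have a member near as well, and 101 did, among them Nfix, Sall2, Barhl1 and Pcgf5 above, so that 2022 genes (9.24%) had a member near with or without JARID2. Another 9 genes, among them Foxo1, Cd24a and Zyx, had a member and a JARID2 peak near but no shared SUZ12 peak and are in neither group. A list's share is read against 8.74% for PCL2-only genes and 11.5% for shared genes.

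Few genes of 9 lists of developmental transcription factors and Wnt ligands were PCL2-only. Of 164 genes in the lists of neural, mesodermal, Hox, Pax, Nkx, Lhx, T-box, Sox and Wnt genes together, 4 were PCL2-only and 142 shared. Of the shared ones, En2, a midbrain homeobox gene, and Eomes, a T-box factor of the primitive streak, also had a member near. A gene near a shared peak was counted as shared, so with 142 of 164 shared, few genes could be PCL2-only. The low PCL2-only count thus partly restates the high shared count. With or without JARID2, 6 of the 164 (3.66%) had a member near, against 9.24% of all coding genes. The Hox genes, which set position along the body axis, had 0 of 39 PCL2-only and 36 shared. None of the 14 Nkx factors, 19 Wnt ligands, 16 T-box factors or 9 Pax factors was PCL2-only. Of these, 13 Nkx, 18 Wnt, 11 T-box and 8 Pax genes were shared. Each of these lists is short and would hold few PCL2-only genes at the 8.74% of all coding genes. A 0 in any of them alone therefore says little. With peaks of at least 1 kb only, 1 gene each of the Hox, Nkx, Wnt and T-box lists was PCL2-only. So were 3 of the 24 mesodermal genes. That setting, here and below, drops narrower peaks from all 3 peak lists, JARID2 included, so a shared gene can become PCL2-only. At 5 kb 1 Hox and 1 Pax gene were PCL2-only. The 4 PCL2-only genes were Gbx2, under a member of 3428 bp with its start in it, Lhx3, under one of 2771 bp, Sox13, a SoxD factor, under one of 2231 bp, and Mesp2, a regulator of somite segmentation, under one of 1959 bp. The nearest JARID2 peak lay 1242 bp from the Lhx3 member, 16444 bp from that of Mesp2, 58488 bp from that of Gbx2 and 238945 bp from that of Sox13. At a distance of 5 kb Lhx3 was shared. Of the 44 Fox factors, 4 were PCL2-only (9.09%) and 24 shared, the 4 being Foxj2, Foxn4, Foxs1 and Foxk1. With the shared genes Foxl1 and Foxo6, and with Foxo1, 7 Fox genes (15.9%) had a member near.

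Among signalling genes, the Eph receptors and ephrins, which guide cells and axons by contact, and the retinoic acid genes had the highest shares. Of 22 Eph and ephrin genes, 7 were PCL2-only (31.8%) and 9 shared (40.9%). The widest was the 3187 bp peak of Ephb2, followed by Epha10 (1702 bp), Efna1 (1422 bp) and Efna2 (1059 bp). Retinoic acid genes had 5 of 18 PCL2-only (27.8%) and 6 shared. The 5 were Crabp2, which carries retinoic acid in the cell (1955 bp), Rdh10, which makes its precursor retinaldehyde (1325 bp), Dhrs3, which turns retinaldehyde back to retinol (1223 bp), and the receptors Rarg (1180 bp) and Rxrg. The shared gene Cyp26c1, which breaks down retinoic acid, also had a member near. Genes of MAPK feedback and the early response had 4 of 18 PCL2-only (22.2%) and 7 shared, the 4 being Fosl1, an AP-1 factor (1789 bp), Dusp6, an ERK phosphatase (754 bp), Junb (734 bp) and Spry1, an inhibitor of receptor kinase signalling (628 bp). The shared gene Dusp4, a MAPK phosphatase, also had a member near. The TGF beta and BMP list had 3 of 27 PCL2-only (11.1%) and 19 shared (70.4%), the 3 being Inhbb (3615 bp), Tgfb1 (2534 bp) and Bmp8a (1438 bp); with peaks of at least 1 kb only, 6 were PCL2-only and 15 shared. The FGF list had 1 of 22 PCL2-only, Fgf11, and 11 shared, of which Fgf12 also had a member near. The TNF receptors had 3 of 20 PCL2-only (Tnfrsf23, Tnfrsf25 and Tnfrsf21) and 1 shared, but with peaks of at least 1 kb only, 0 PCL2-only and 1 shared.

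None of the 18 naive pluripotency genes and none of the 14 PRC2 genes was PCL2-only, and 1 of each list was shared. At the 8.74% of all coding genes, lists this short would hold few PCL2-only genes, so these 0 counts are near the background. At 5 kb, 1 naive pluripotency gene was PCL2-only. DNA methylation genes had 3 of 12 PCL2-only (25%) and 0 shared. They were the de novo methyltransferases Dnmt3a (chr12:3806150-3807935, 1786 bp) and Dnmt3b (chr2:153648843-153650508, 1666 bp) and the 5-methylcytosine oxidase Tet3 (chr6:83440825-83442347, 1523 bp). This list is short too, and with peaks over the gene counted, 2 of its 12 genes were PCL2-only and 1 shared. Both methyltransferases also stood in the primed epiblast list, where with Cldn6, a tight junction gene, they made 3 of 15, against 9 shared. In the PRC1 list, 2 of 20 were PCL2-only, Phc2 and Kdm2b, and 6 shared, of which Pcgf5 also had a member near. The imprinted list had 3 of 21 PCL2-only, Nnat, Plagl1 and Igf2r, and 13 shared, and with peaks of at least 1 kb only, 6 PCL2-only and 10 shared. Cdkn2a, which encodes the inhibitors p16 and p19ARF, was the 1 of 14 cell cycle inhibitors PCL2-only.

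Germline genes were among the few lists with more PCL2-only than shared genes, 5 of 20 PCL2-only (25%) against 3 shared (15%). The 5 were Taf7l, a testis form of a TFIID subunit (chrX:134474726-134476332, 1607 bp), the germ cell RNA-binding gene Dazl (chr17:50293089-50294562, 1474 bp), the RNA helicase gene Ddx4, also called Vasa (chr13:112651544-112652904, 1361 bp), Stk31 (chr6:49394889-49396249, 1361 bp) and Hormad1, a meiotic chromosome axis gene (chr3:95559090-95560376, 1287 bp). PCL2 covered all of the Taf7l and Ddx4 peaks and 28.1% of the Stk31 peak. The large family of Zfp zinc finger genes had 33 of 397 PCL2-only (8.31%), close to the 8.74% of all coding genes, against 23 shared (5.79%). Its widest members were at Zfp467 (1971 bp), Zfp354b (1727 bp), Zfp36l2 (1653 bp) and Zfp647 (1571 bp). Keratins had 4 of 49 PCL2-only (8.16%), also close to the 8.74% of all coding genes, against 2 shared (4.08%). The 4 were Krt18 and Krt7, the keratins of simple epithelia and trophoblast, and Krt2 and Krt27. The Krt18 member lay 789 bp from a JARID2 peak. With peaks of at least 1 kb only, 2 keratin genes were PCL2-only and 1 shared.

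In lists of neuronal membrane genes, PCL2-only shares ran from near the 8.74% of all coding genes to well above it. Potassium channels (9.57%) and semaphorins and plexins (10.3%) were near it. In each of these lists the share of shared genes stood further above its background of 11.5%. Of 46 glutamate and GABA receptor genes, 10 were PCL2-only (21.7%) and 20 shared (43.5%). The widest members were at the kainate receptor genes Grik3 (1851 bp) and Grik4 (1621 bp), at the start of Grin3b (1383 bp) and at Grm2, a metabotropic receptor gene (1336 bp), and Grin1, the obligatory NMDA receptor subunit, had one of 1100 bp. The shared genes Grid2ip and Grm6 also had a member near. The list was drawn by symbol, and Grid2ip encodes a receptor-interacting protein and not a receptor. Calcium and sodium channel genes had 7 of 40 PCL2-only (17.5%) and 15 shared (37.5%), led by Scn8a (3836 bp), Cacnb3 (2349 bp), Cacna1b (2064 bp) and Cacna1a (1185 bp). Potassium channel genes had 9 of 94 PCL2-only (9.57%) and 49 shared (52.1%), with Kcnq3, an M-current channel, under the widest member (2253 bp), then Kcns1, Kcnh4 and Kcns3. With peaks of at least 1 kb only in all 3 lists, 23 potassium channel genes (24.5%) were PCL2-only and 33 shared. Protocadherins, adhesion proteins most of which sit in clustered arrays, had 14 of 69 PCL2-only (20.3%) and 25 shared (36.2%). Neighbouring genes of these arrays lie close enough that their peaks are not separate cases. All 14 lie on chromosome 18, where no start is listed, so a peak within 1 kb of either end of the gene counted. Several of these genes have the same annotated end, so a peak there would count for each of them. At 5 kb, 22 were PCL2-only and 31 shared, and with peaks over the gene counted, 9 were PCL2-only and 45 shared. Semaphorins and plexins had 3 of 29 PCL2-only, all of the Sema4 class (Sema4c, Sema4g and Sema4f), and 13 shared, of which Sema3f also had a member near. With peaks over the gene counted, 5 were PCL2-only and 14 shared.

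Transporters, enzymes, matrix and housekeeping families ranged from above the background of 8.74% to well below it. Solute carriers had 36 of 375 PCL2-only (9.60%) and 68 shared (18.1%), led by Slc35e4 and Slc16a8. ADAM and ADAMTS family genes, a list drawn by symbol, had 8 of 58 PCL2-only (13.8%) and 15 shared. Phosphodiesterases had 4 of 26 PCL2-only (15.4%), namely Pde5a (2633 bp), Pde1b, Pde8a and Pde1c, and 9 shared. Of the shared ones, Pde4a and Pde8b also had a member near, which makes 6 with a member (23.1%). Collagens had 3 of 44 PCL2-only (6.82%), namely Col13a1, Col18a1 and Col9a2, and 15 shared, and with peaks of at least 1 kb only, 6 PCL2-only and 12 shared. Of 81 ribosomal protein genes 1 was PCL2-only, Rpl7, by way of the peak over the neighbouring start of Rdh10, and of 1106 olfactory receptor genes 3 were (0.271%): Olfr94, Olfr95 and Olfr279. The proteasome list had 2 of 39, Psmb8 being one.

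**Figure D5:**
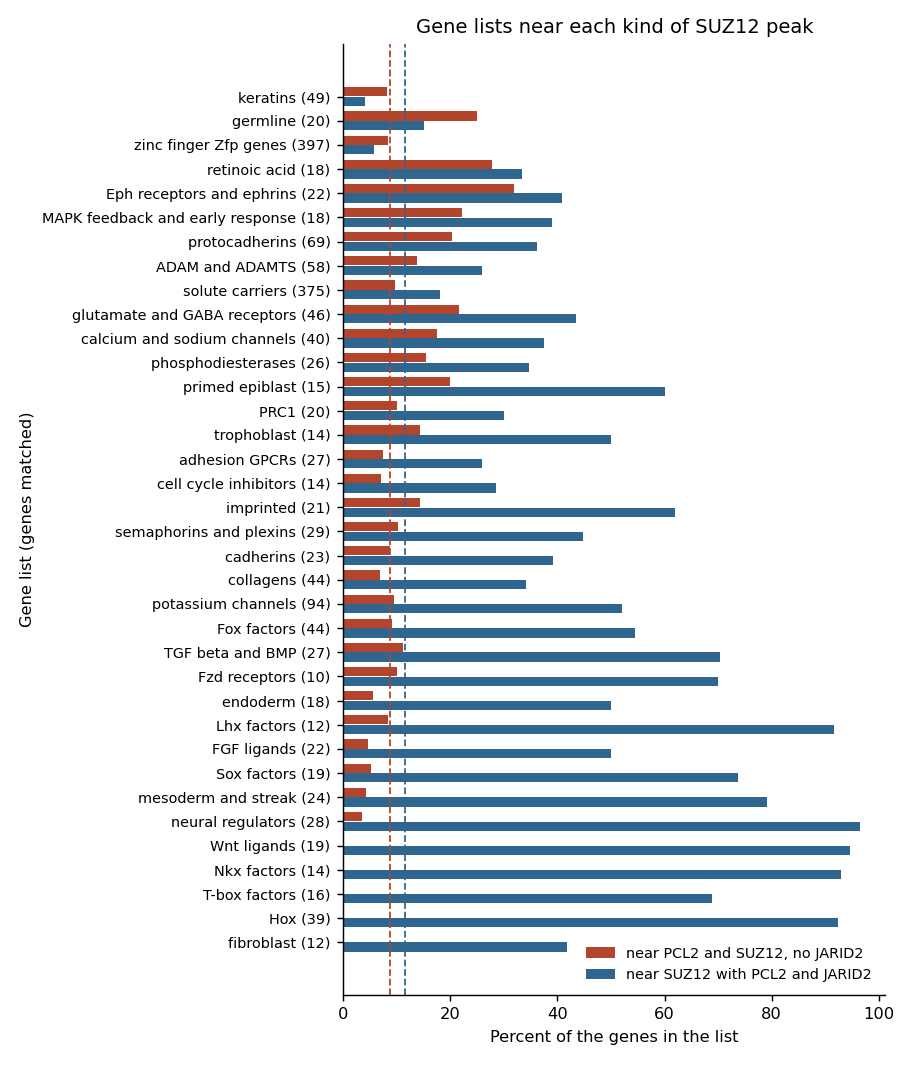
Percent of each gene list (horizontal axis) that were PCL2-only and that were shared, for the reported lists with at least 10 genes matched (number in brackets) and at least 5 near SUZ12; dashed lines mark 8.74% and 11.5% of all coding genes. Lists run from those with the highest share of their genes near SUZ12 at PCL2-only peaks, such as germline genes, down to Hox, Nkx and Wnt genes with none.

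Non-coding genes were also found under members. Of 1005 microRNA hairpins, 17 overlapped 15 PCL2-only peaks, 16 of them wholly inside, against 35 that overlapped shared peaks, and they give 24 mature sequences, no 2 of which have the same seed. The sequences of 4 well-studied ones, chosen after the list was seen, show how different they are. They are from RefSeq, with the seed (bases 2 to 8) in capitals.
miR-137-3p: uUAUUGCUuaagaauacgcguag
miR-34b-5p: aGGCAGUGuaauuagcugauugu
miR-199b-3p: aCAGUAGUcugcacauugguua
miR-219a-5p: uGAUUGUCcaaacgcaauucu
Mir137, a brain microRNA gene, lay in a 584 bp member at chr3:118433524-118434107. Mir34b, a p53 target gene of ciliated cells and testis, lay in one of 912 bp (chr9:51103251-51104162). Mir199b lay in one of 1388 bp (chr2:32317693-32319080), and Mir219a-2, of the oligodendrocyte lineage, in one of 2010 bp (chr2:29844624-29846633). Of 12727 long non-coding RNA genes, 359 (2.82%) were PCL2-only by the rule used for coding genes and 679 (5.34%) shared.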

How the data were processed

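Peak positions for SUZ12, PCL2 and JARID2 were taken as deposited by the authors; their values are other than a level, being starts and ends in bp. The submitters' processing notes name Trimmomatic, Bowtie2 and mm10 for the immunoprecipitations and STAR and HTSeq for RNA, without versions. No source used here gives the peak caller, its threshold or whether libraries were pooled. The members and gene lists were chosen with earlier results of these data known.

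Overlaps were computed in Python 3.11.15 (NumPy 2.4.6, SciPy 1.17.1) and checked on simulated intervals and against bedtools 2.31.1, which also gave 3665 members. Starts are counted from 1. Gene positions, promoter windows and miRNAs are RefSeq's, assembly GRCm38.p6. Of 21887 coding genes, 17492 have a listed start, and 3118 of 3121 list entries matched. None of the 511 coding genes of chromosome 18 has a listed start, so they take no part in the start, CpG and motif results. The 100 members there stay in the totals of peaks. Results of 1 list are not reported here. Gene names follow a rule: the 10 widest members, those next to the rule's limits, and up to 4 genes per list with the widest member near; further names given for lists with few members were chosen after their values were seen. Shares have 95% Wilson intervals where given. No test was run, since the peak lists have no replicates.

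The 24 RNA libraries were not used, because neither the files nor the reference pair their Ensembl IDs with symbols or positions. The planned comparisons of RNA near these peaks, and a check of the cell type by its markers, were therefore not run. Alternatives tried were other overlaps, distances to JARID2, peak widths and distances to genes.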

Additional observations from a re-analysis of the deposited data

How the results depend on the processing

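The number of PCL2-only peaks stayed within 1.5 times of 3665 under each setting tried. It lay between 2759 (only peaks of at least 1 kb in all 3 lists) and 3708 (at least 500 bp). Both of these settings also drop narrower JARID2 peaks, so SUZ12 peaks that overlapped only those count as PCL2-only. Shared peaks came to 2366 at 1 kb and 3454 at 500 bp, against 3921. A similar total therefore does not mean the same peaks. The number of PCL2-only genes stayed between 1666 (peaks of at least 1 kb) and 2190 (a peak over the gene or within 1 kb of it), against 1912. Leaving out chromosome 8, a setting chosen after the data were seen, as was the band of 1000 to 2000 bp in width, gave 3235 peaks and 1725 genes. The 5 properties followed were members' median width, median CpG and shares with a start, with CCGGAAG and on chromosome 8. With peaks of at least 1 kb, 4 left the interval of the main value, and 2 did at 500 bp. So did 1 of 5 with no JARID2 peak within 5 kb and 1 of 4 without chromosome 8. The share with a start left it each time, at 42.2%, 37.1%, 38.1% and 36.8%, against 35.1%. Median width was 1549 bp at 1 kb and 1155 bp at 500 bp, against 1052 bp. With peaks of at least 1 kb only in all 3 lists, the share of members on chromosome 8 was 9.31% in place of 11.7%. That of starts with CCGGAAG was 6.09% in place of 9.0%. Both shares include shared peaks that this setting counts as PCL2-only. Of the members of the main rule, 9.96% of those of 1000 to 1500 bp were on chromosome 8. Wider members had 14.4% (1500 to 2000 bp), 21.4% (2000 to 3000 bp) and 37.8% of 37 (3000 bp or more). Shared peaks in these 4 classes had 4.01%, 5.01%, 4.60% and 9.16%. Of the 46 list counts, 17 moved by more than 1.5 times with peaks of at least 1 kb, 9 when peaks over the gene counted, 7 at a distance of 5 kb and 1 without chromosome 8. Potassium channel genes moved by the most genes, to 23 with peaks of at least 1 kb, against 9. No paired analysis was possible because the peak lists carry no replicates and the RNA libraries could not be tied to the peaks. The alternatives planned for RNA were not run for the same reason. The lists have no scores, so a JARID2 peak that missed the authors' threshold cannot be told apart from none, and depth behind a call is unknown.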
